A study of Mus musculus with 8 samples.

Results

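The transcripts of 10 receptors that inhibit transmitter release from sensory nerve endings were followed in sorted mouse dorsal root ganglion (DRG) neurons. The members are Gabbr1, Gabbr2, Cnr1, Adora1, Adra2c, Htr1d, Npy1r, Npy2r, Chrm2 and Galr1, chosen by name as non-opioid receptors that couple to inhibitory G proteins of the Gi/o class, and they are 10 of the 22609 gene symbols counted. The study compared naïve females (n = 4 libraries) with naïve males (n = 4 libraries), to look for sex-dependent expression in the sensory neurons of hindpaw skin and thigh muscle. All mice were young adult C57BL/6J animals without a transgene or drug, and per the study's methods the females were in the estrous phase. In both sexes a green fluorescent conjugate of wheat germ agglutinin (WGA) was injected into both hindpaws and both thighs, and days later labelled cells of the lumbar L3 to L5 ganglia of both sides were sorted and their RNA was amplified with the SMART-seq2 protocol. Each library is therefore a bulk mixture of skin and muscle neurons of all types, in which fewer cells of a type and less RNA per cell cannot be told apart.

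Inhibitory receptors of this class sit on the central and peripheral endings of sensory neurons. When a transmitter binds them, the G protein's alpha subunit slows adenylyl cyclase and its beta-gamma subunits close presynaptic calcium channels or, in many neurons, open inward-rectifier potassium channels, so that less glutamate and neuropeptide is released. The GABA-B receptor is the only obligate pair among the members: Gabbr1 encodes the subunit that binds GABA and Gabbr2 the subunit that carries the first to the cell surface and engages the G protein. The other 8 encode receptors for endocannabinoids (Cnr1), adenosine (Adora1), noradrenaline (Adra2c), serotonin (Htr1d), neuropeptide Y (Npy1r, Npy2r), acetylcholine (Chrm2) and galanin (Galr1).

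The libraries held 4800071 to 7329597 gene reads, and 3 reads in a library corresponded to 0.409 to 0.625 CPM (reads of a gene scaled to the same total of gene reads in every library). Female replicate 4 stood apart: its level relative to the mean of the 8 libraries fell with exon length across genes (Spearman's rho -0.53) and rose with exon GC content (rho 0.346), where the other libraries had rho between 0.0934 and 0.307 for length. Markers listed for the tissue showed a neuronal preparation with glial RNA in it. The 14 pan-neuronal markers summed to 24800 to 35200 CPM, highest in female replicate 4, and none of them had an unadjusted edgeR p under 0.05 between the sexes. The 15 markers of satellite glia and Schwann cells summed to 11800 to 15100 CPM in females and 5500 to 11400 CPM in males. Of those 15, 6 were higher in females at an unadjusted edgeR p under 0.05, as were 6 of 8 tested fibroblast markers and 4 of 5 tested macrophage markers, with summed levels of 147 to 199 CPM against 56.8 to 120 CPM and of 16.5 to 40.6 CPM against 7.64 to 16.3 CPM. Of markers of neuron types, 2 of 9 for myelinated neurons and 1 of 10 for non-peptidergic nociceptors were higher in females at an unadjusted edgeR p under 0.05, and 1 of 3 tested endothelial and mural markers was higher in males. Over all tested genes 4.44% were higher in females and 2.67% higher in males by the same threshold. None of these markers passed after adjustment, no marker in these lists was at 0 in all libraries, and the part of these cells in the receptor levels was not tested. The study itself reported Bgn, Mxra8, Islr, Abi3bp, Cd74 and Sox10, which are among these markers, as female-selective in the same labelled neurons. The fibroblast, macrophage and glial counts are therefore not independent of that result. The macrophage count also rests on the 5 of 12 listed markers that passed the filter. Of these, C1qb lay towards males (log2 fold change -0.14), and that of Lyz2 fell from 1.49 to 0.56 without female replicate 4. Among those under the filter, H2-Aa, Cd68, Csf1r, Cx3cr1 and C1qa had the higher mean CPM in females, and Aif1 and Mrc1 in males.

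Sequences upstream of the start sites are shown for 4 receptors, the pair with the highest levels (Adora1, Gabbr1), the receptor with the smallest p-value between the sexes (Npy1r) and the one with the lowest level (Adra2c). Each is the 250 bases before a RefSeq start site, read on the gene's strand, with CG dinucleotides, the sites of DNA methylation, in capitals. Each window matched mm9 exactly and once. For Gabbr1, Npy1r and Adra2c the start site was also that of the gene model used for exon lengths, and for Adora1 it lay 26 bases further upstream.
Adora1, chr1:136132035-136132284, minus strand: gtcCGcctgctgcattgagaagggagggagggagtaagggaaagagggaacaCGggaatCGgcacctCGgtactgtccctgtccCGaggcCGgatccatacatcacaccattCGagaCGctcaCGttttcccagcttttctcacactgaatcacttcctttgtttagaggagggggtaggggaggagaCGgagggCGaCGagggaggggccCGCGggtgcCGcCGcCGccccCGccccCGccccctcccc
Gabbr1, chr17:37182661-37182910, plus strand: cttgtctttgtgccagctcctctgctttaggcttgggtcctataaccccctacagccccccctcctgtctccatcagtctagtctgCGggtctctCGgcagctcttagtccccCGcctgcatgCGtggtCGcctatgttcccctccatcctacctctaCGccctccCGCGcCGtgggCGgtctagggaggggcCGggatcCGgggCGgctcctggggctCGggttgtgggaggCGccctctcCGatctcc
Npy1r, chr8:69221071-69221320, plus strand: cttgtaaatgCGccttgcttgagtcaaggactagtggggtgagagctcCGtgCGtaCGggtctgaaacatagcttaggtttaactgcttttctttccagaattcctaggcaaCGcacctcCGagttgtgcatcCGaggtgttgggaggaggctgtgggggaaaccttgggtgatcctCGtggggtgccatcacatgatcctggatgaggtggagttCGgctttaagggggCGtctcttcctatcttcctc
Adra2c, chr5:35620965-35621214, plus strand: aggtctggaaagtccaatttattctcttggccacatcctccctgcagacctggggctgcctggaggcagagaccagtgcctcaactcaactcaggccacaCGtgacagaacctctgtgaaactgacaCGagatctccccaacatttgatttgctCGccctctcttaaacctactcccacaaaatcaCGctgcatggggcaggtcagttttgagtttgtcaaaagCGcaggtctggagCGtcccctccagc
The Adora1 window held 19 CG dinucleotides, that of Gabbr1 16, that of Npy1r 10 and that of Adra2c 6. CG reads the same on both strands. Of 32851 such windows in the RefSeq table, which had a median of 6, 19.7% held at least 19, 25.4% at least 16, 37.8% at least 10 and 50.4% at least 6. These 4 receptors were picked by level and p-value, and windows of other receptors did not keep the order of the levels. That of Gabbr2 held 37, those of Cnr1 36, 28 and 5, those of Htr1d 6 and 20, and those of Npy2r and Chrm2 12 each. A relation of CG count to level was not tested.

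To compare receptors with each other, levels were expressed per length, as CPM per kilobase of merged exons (RPKM, n = 8 libraries). Adora1 had the highest level, 35.7 ± 1.89 RPKM (SD), followed by Gabbr1 with 23.6 ± 4.52 RPKM, Htr1d with 13.4 ± 3.16 RPKM and Npy1r with 12.8 ± 4.03 RPKM. Npy2r (9.68 ± 3.55 RPKM), Gabbr2 (7.30 ± 1.13 RPKM), Cnr1 (5.53 ± 1.70 RPKM) and Galr1 (4.47 ± 1.58 RPKM) took the middle of the order, and Chrm2 (1.60 ± 0.334 RPKM) and Adra2c (0.707 ± 0.167 RPKM) the end. The mean level of Adora1 was 50.5 times that of Adra2c. Of the 9 pairs of neighbours in this order, 2 had ranges that did not overlap, Adora1 with Gabbr1 and Galr1 with Chrm2. The least certain neighbours were Htr1d and Npy1r, where each was the higher one in 4 libraries, and Cnr1 and Galr1, where Cnr1 was higher in 5 of 8. The margin between the first and the next depended on the length used for Gabbr1, whose 12 annotated transcripts merge into 7793 bases of exon while its longest transcript has 5248. With the longest transcript as the length, Gabbr1 was at 35.1 ± 6.72 RPKM (SD) against 35.7 ± 1.89 RPKM for Adora1, and Adora1 was higher in 5 of 8 libraries.

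**Figure D1:**
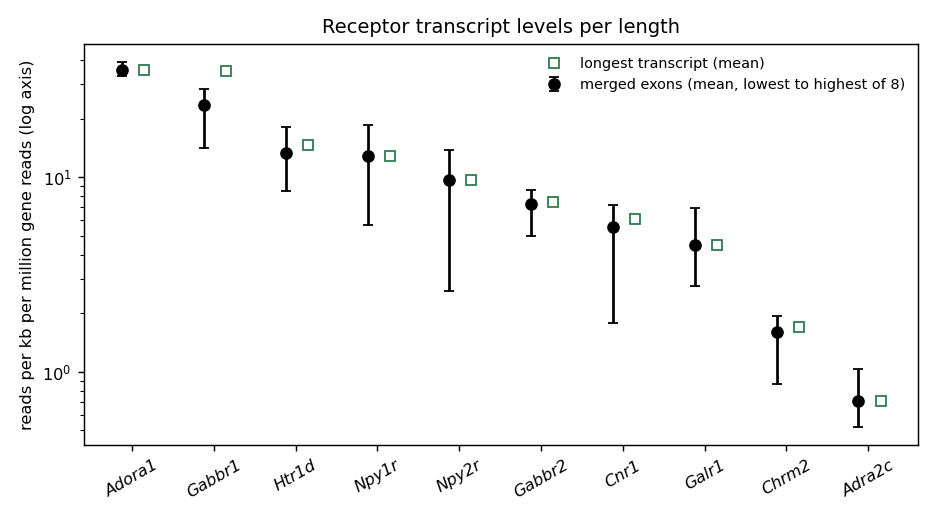
Mean level of each receptor in RPKM on a log axis, in order, with whiskers from the lowest to the highest of the 8 libraries (merged exon length) and open squares for the mean with the longest transcript as length. Adora1 and Gabbr1 lead, Chrm2 and Adra2c are lowest, and Gabbr1 is the receptor whose position shifts most with the length used.

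The sexes were compared next. All 10 receptors passed the expression filter and none passed the test for a difference between the sexes. With edgeR, 0 of 10 had an unadjusted p under 0.05, where 890 of 12518 tested genes (7.11%; 4.44% higher in females and 2.67% in males) did, and 0 had an adjusted p under 0.05, where 11 genes (0.0879%) did, sex-linked genes included. DESeq2 gave 0 receptors and limma-voom 1 (Npy1r) at an unadjusted p under 0.05, and neither gave any after adjustment. The CPM ranges of the sexes overlapped for every receptor, and 691 tested genes (5.52%) had ranges that did not overlap. With only 10 receptors, 0 is not set apart from a share of that size. The fitted difference was towards males for 7 receptors and towards females for 3, with a median log2 fold change (female over male) of -0.159 against 0.003 for all tested genes. Without female replicate 4 the split was 5 and 5 and the median 0.02, again with 0 receptors at an unadjusted p under 0.05, where 11.4% of tested genes were called.

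**Figure D2:**
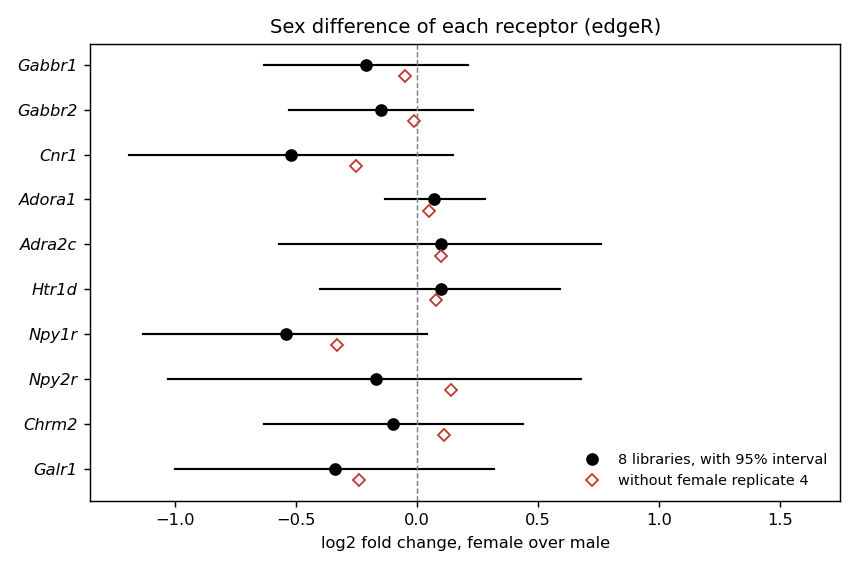
Log2 fold change (female over male) of each receptor from edgeR with its 95% interval, from 4 female and 4 male libraries, and the estimate without female replicate 4 (open diamonds). All 10 intervals include 0, the narrowest that of Adora1, from -0.13 to 0.28, and all 7 estimates under 0 shift upwards without female replicate 4, those of Npy2r and Chrm2 past 0.

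The GABA-B receptor pair was present in all libraries. Gabbr1 (chromosome 17, 37182911 to 37212012, plus strand) was at 174, 222, 181 and 111 CPM in female replicates 1 to 4 and at 217, 181, 177 and 210 CPM in male replicates 1 to 4. Gabbr2 (chromosome 4, 46675190 to 47004745, minus strand) was at 39.7, 50.5, 44.0 and 29.1 CPM in females and 46.9, 45.2, 46.7 and 39.6 CPM in males. For both subunits the highest and the lowest library were female, replicates 2 and 4, and the male values lay between them. The log2 fold change of Gabbr1 was -0.21 ± 0.19 (SE; edgeR adjusted p = 0.814; 95% interval -0.63 to 0.21) and that of Gabbr2 -0.15 ± 0.17 (SE; edgeR adjusted p = 0.847; -0.53 to 0.23). Without female replicate 4 they were -0.05 ± 0.11 and -0.01 ± 0.12 (SE).

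The subunit ratio within a library does not depend on how libraries are scaled. Reads of Gabbr1 were 4.38, 4.39, 4.11 and 3.81 times those of Gabbr2 in female replicates 1 to 4 and 4.63, 4.00, 3.78 and 5.30 times in male replicates 1 to 4. The mean ratio was 4.30 ± 0.500 (SD, n = 8), and female replicate 4, where both subunits were at their lowest, had the lowest ratio of the females and the second lowest of all libraries, after male replicate 3. Females had a mean ratio of 4.17 ± 0.274 (SD, n = 4) and males of 4.43 ± 0.681 (SD, n = 4), a log2 difference of -0.076 with an exact permutation p of 0.571 (two-sided, 70 labelings, smallest possible p 0.0286). Per kilobase of merged exon the Gabbr1 level was 3.23 ± 0.375 times the Gabbr2 level (SD, n = 8), and 4.70 ± 0.547 times with the longest transcripts.

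**Figure D3:**
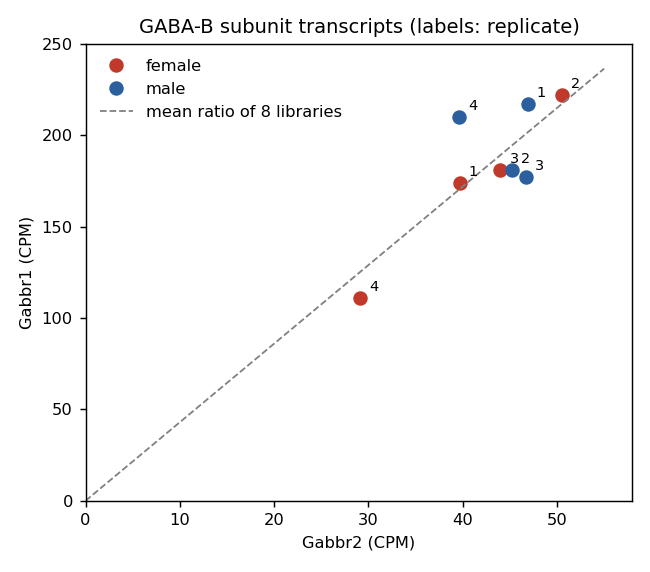
Gabbr1 against Gabbr2 in CPM, a point per library with its replicate number, females red and males blue, with a dashed line at the mean ratio of 4.30. Female replicate 4 is lowest on both axes and lies under the line, with a ratio of 3.81, and male replicate 4, with a ratio of 5.30, is farthest above it.

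GABA-B receptors carry auxiliary KCTD subunits that shape how fast their G-protein signal fades. Of the 4 listed, Kctd16 (228 ± 26.3 CPM in females and 222 ± 25.7 CPM in males; SD, n = 4 each) and Kctd8 (116 ± 6.58 and 128 ± 17.9 CPM) passed the filter, and neither passed the test between the sexes (log2 fold change 0.02 ± 0.12 and -0.17 ± 0.12, SE). Kctd12 had 0 to 13 reads per library and Kctd12b 1 to 20, under the filter. Genes that make and package GABA were near or at the floor: Gad1, a GABA-synthesizing enzyme, had 4 to 10 reads per library, Gad2 had at most 1, and the vesicular transporter Slc32a1 had 0 in all 8, which allows at most 0.409 to 0.625 CPM.

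Cnr1 (chromosome 4, 34011568 to 34035806, plus strand) encodes CB1, the main neuronal cannabinoid receptor. It was at 40.4, 33.0, 32.9 and 11.5 CPM in female replicates 1 to 4 and at 35.7, 46.5, 43.9 and 41.0 CPM in male replicates 1 to 4. Female replicate 4 lay far under all other libraries, female replicate 1 lay within the male range, and female replicates 2 and 3 lay just under it. The log2 fold change was -0.52 ± 0.30 (SE; edgeR adjusted p = 0.748; 95% interval -1.19 to 0.15), and -0.25 ± 0.12 (SE; edgeR adjusted p = 0.458) without that library. Cnr2, the cannabinoid receptor of immune cells, had 0 reads in all 8 libraries.

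Enzymes that make and break down endocannabinoids were also read from the fit. Faah, which breaks down anandamide, was at 29.2 ± 4.68 CPM in females and 20.5 ± 3.59 CPM in males (SD, n = 4 each), which is 0.49 ± 0.17 (SE) as a log2 fold change, and its unadjusted edgeR p of 0.0163 did not pass adjustment (adjusted p = 0.637). Mgll, which breaks down the other main endocannabinoid, 2-arachidonoylglycerol, was at 115 ± 13.2 and 96.6 ± 10.1 CPM (edgeR adjusted p = 0.734). The lipases Dagla and Daglb, which make 2-arachidonoylglycerol, had edgeR adjusted p-values of 0.838 and 1.000, and Napepld, of the anandamide pathway, 0.920.

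Adora1 (chromosome 1, 136095800 to 136132008, minus strand) encodes the A1 adenosine receptor. It was at 205, 212, 211 and 225 CPM in female replicates 1 to 4 and at 192, 201, 212 and 194 CPM in male replicates 1 to 4. All 8 values lay close together, and its highest library was female replicate 4, in which 6 other receptors were at their lowest. Its coefficient of variation over the 8 libraries was 5.29%, where counting error alone gives 2.77%, and 0.751% of tested genes varied as little or less. Between the sexes the fitted log2 fold change was 0.07 ± 0.09 (SE; edgeR adjusted p = 0.859), and the 95% interval of -0.13 to 0.28 was the narrowest of the 10. Of its exon bases 11.43% (661 bases) overlap Mybph on the other strand, and Mybph had 25 to 49 reads. SMART-seq2 does not mark strand, so reads from the shared bases cannot be told apart. How the counting treated them is not given.

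The ectoenzymes that make adenosine outside the cell were both abundant. Acpp, which dephosphorylates AMP on nociceptors, was at 503 ± 193 CPM in females and 622 ± 87.8 CPM in males (SD, n = 4 each; edgeR adjusted p = 0.805), and Nt5e (CD73), which does the same, at 88.2 ± 35.8 and 126 ± 19.4 CPM (edgeR adjusted p = 0.734). Adk, the kinase that clears adenosine inside cells, was at 579 ± 85.1 and 660 ± 77.8 CPM (edgeR adjusted p = 0.768). Among the other adenosine receptors, Adora2b, which couples to stimulatory G proteins, was at 11.3 ± 2.24 CPM in females and 15.4 ± 0.727 CPM in males, which is -0.45 ± 0.17 (SE) as a log2 fold change, and its unadjusted edgeR p of 0.0220 did not pass adjustment (0.651). Adora3, which couples to Gi, had 0 reads in all 8 libraries.

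Htr1d (chromosome 4, 135979439 to 136000313, plus strand) encodes the serotonin receptor 1D, a target of the triptan migraine drugs. It was at 39.0, 34.5, 58.3 and 46.2 CPM in female replicates 1 to 4 and at 27.2, 51.1, 48.7 and 37.1 CPM in male replicates 1 to 4. The ranges of the sexes largely overlapped, from male replicate 1 at the low end to female replicate 3 at the high end, and female replicate 4 was in the middle of it. The log2 fold change was 0.10 ± 0.22 (SE; edgeR adjusted p = 0.924; 95% interval -0.40 to 0.59), and it turned to -0.27 once the glial score was a covariate. Other Gi-coupled serotonin receptors were lower per length: Htr1b at 7.15, Htr1a at 4.17 and Htr1f at 2.91 RPKM, against 13.4 for Htr1d. Htr1a was at 17.6 ± 9.58 CPM in females and 19.4 ± 4.55 CPM in males (SD, n = 4 each; edgeR adjusted p = 0.934). Htr1b was at 7.51 ± 2.24 CPM in females and 10.7 ± 0.805 CPM in males (SD, n = 4 each), which is -0.53 ± 0.24 (SE) as a log2 fold change, and its unadjusted edgeR p of 0.0470 did not pass adjustment (0.696). Without female replicate 4 Htr1b was at -0.33 and no longer under the unadjusted threshold.

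Adra2c (chromosome 5, 35621215 to 35624410, plus strand) encodes the alpha-2C adrenoceptor and was close to the limit of detection. It had 8 to 19 reads per library, or 2.35 ± 0.694 CPM in females and 2.17 ± 0.405 CPM in males (SD, n = 4 each). Its coefficient of variation, 23.7%, was no larger than counting error alone gives (26.5%), so a spread between mice was not detectable at this depth. Between the sexes the fitted log2 fold change was 0.10 ± 0.30 (SE; edgeR adjusted p = 0.944; 95% interval -0.57 to 0.76) and it turned to -0.11 with length and GC offsets and to -0.19 with the glial score. The other alpha-2 adrenoceptors were under the filter: Adra2a had 0 to 10 reads per library and Adra2b 1 to 10.

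Both receptors for neuropeptide Y spread widely between libraries, with the lowest value in female replicate 4. Npy1r (chromosome 8, 69221321 to 69230697, plus strand), the Y1 receptor, was at 39.9, 43.4, 26.2 and 17.0 CPM in female replicates 1 to 4 and at 55.8, 46.0, 36.3 and 43.9 CPM in male replicates 1 to 4. The lowest 2 libraries were female and the highest 3 male, with female replicates 1 and 2 inside the male range. The log2 fold change was -0.54 ± 0.27 (SE), with an unadjusted edgeR p of 0.0669, the smallest of the 10, an adjusted p of 0.711 and a 95% interval of -1.13 to 0.04. Without female replicate 4 it was -0.33 ± 0.18 (SE; edgeR unadjusted p = 0.0989, adjusted p = 0.507). Leaving out female replicate 1 or 2 instead gave unadjusted edgeR p-values of 0.0417 and 0.0239. With replicate number as a block it was -0.61 ± 0.22 (SE; edgeR unadjusted p = 0.0225, adjusted p = 0.681). With the glial score as a covariate it was -0.33 ± 0.38 (SE; edgeR unadjusted p = 0.406). Of 17 alternatives, 5 gave an unadjusted p under 0.05 for Npy1r.

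Markers of peptidergic nociceptors, the neurons of calcitonin gene-related peptide and substance P, lay in the same direction as Npy1r. Of 6 markers, 4 were higher in males at an unadjusted edgeR p under 0.05, where 2.67% of all tested genes were, and 0 after adjustment: Calca (log2 fold change -0.35), Calcb (-0.30), Tac1 (-0.51) and Adcyap1 (-0.82). Their summed level was 4780 to 6210 CPM in females and 5710 to 8160 CPM in males. The part of such neurons in the Npy1r level was not tested.

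Npy2r (chromosome 3, 82342305 to 82352008, minus strand), the Y2 receptor, was at 46.3, 41.0, 27.1 and 8.76 CPM in female replicates 1 to 4 and at 32.1, 33.3, 28.4 and 43.8 CPM in male replicates 1 to 4. Females held both the highest and the lowest library, and the male values lay within the female range. Its coefficient of variation was the largest of the 10, 36.7% against 6.90% from counting error, but 21.3% without female replicate 4, when Galr1 (34.7%), Adra2c (25.7%), Htr1d (25.6%) and Npy1r (21.8%) varied more. Between the sexes the fitted log2 fold change was -0.17 ± 0.39 (SE; edgeR adjusted p = 0.923; 95% interval -1.03 to 0.68) and turned to 0.14 ± 0.19 (SE; edgeR adjusted p = 0.814) without that library. Npy5r, Npy6r and Ppyr1 (the Y4 receptor) did not pass the filter, with at most 7 reads in a library. The ligand gene Npy itself had 0 to 73 reads per library, with 1.81 ± 1.38 CPM in females and 5.18 ± 5.12 CPM in males (SD, n = 4 each; edgeR adjusted p = 0.752).

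Chrm2 (chromosome 6, 36338084 to 36478414, plus strand) encodes the M2 muscarinic receptor. It was at 11.7, 11.3, 9.37 and 5.22 CPM in female replicates 1 to 4 and at 9.69, 10.7, 10.4 and 9.02 CPM in male replicates 1 to 4, from 31 to 85 reads. Female replicate 4 was again the lowest, and the others lay between 9.02 and 11.7 CPM. The log2 fold change was -0.10 ± 0.24 (SE; edgeR adjusted p = 0.930; 95% interval -0.63 to 0.44), and it turned to 0.11 without that library and to 0.06 with length and GC offsets. A long non-coding RNA on the other strand, 9330158H04Rik, shares 142 of the Chrm2 exon bases and had 3 to 11 reads. Chat, which makes acetylcholine, had 0 reads in all 8 libraries, whereas Ache, which breaks it down, was at 199 ± 40.1 CPM in females and 180 ± 16.7 CPM in males (SD, n = 4 each).

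Galr1 (chromosome 18, 82561888 to 82576169, minus strand) encodes a galanin receptor. It was at 18.4, 9.89, 7.92 and 9.26 CPM in female replicates 1 to 4 and at 20.1, 13.4, 9.41 and 14.3 CPM in male replicates 1 to 4. Replicate 1 was the highest in each sex, and the remaining females, from 7.92 to 9.89 CPM, lay near or under the lowest male. Between the sexes the fitted log2 fold change was -0.34 ± 0.30 (SE; edgeR adjusted p = 0.813; 95% interval -1.0 to 0.32), and it turned to 0.23 with the glial score as a covariate. Without female replicate 1 it was -0.68, with an unadjusted edgeR p of 0.0267. The peptide gene Gal was at 33.9 ± 5.64 CPM in females and 40.6 ± 8.03 CPM in males (SD, n = 4 each; edgeR adjusted p = 0.775), and the other galanin receptors, Galr2 and Galr3, did not pass the filter.

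**Figure D4:**
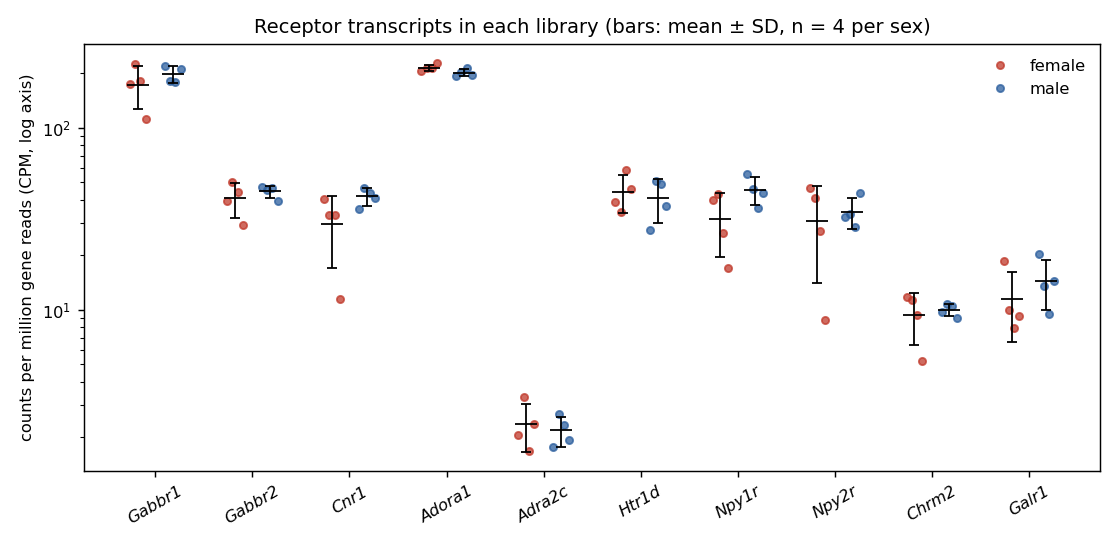
CPM of each receptor on a log axis in the 4 female (red) and 4 male (blue) libraries, with mean ± SD of each sex. The sexes overlap for all 10 receptors, Adora1 is the tightest, and the low female point of Gabbr1, Gabbr2, Cnr1, Npy1r, Npy2r and Chrm2 is replicate 4.

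Female replicate 4 was the lowest of the 8 libraries for 6 of 10 receptors, Gabbr1, Gabbr2, Cnr1, Npy1r, Npy2r and Chrm2, while over all tested genes it was the lowest for 31.5% and the highest for 31.4%. The mean of the other 7 libraries was 4.11 times its level for Npy2r, 3.41 times for Cnr1, 2.45 times for Npy1r, 1.97 times for Chrm2 and 1.53 times for Gabbr2, and Gabbr1 was at 111 CPM there against 174 to 222 CPM. Adra2c, Htr1d and Galr1 were within the range of the other libraries there, and Adora1 was above it. After offsets for exon length and GC content it was still the lowest for 6 receptors, and the same ratios were 3.86 for Npy2r, 2.46 for Cnr1, 2.45 for Npy1r, 1.34 for Chrm2, 1.41 for Gabbr1 and 1.37 for Gabbr2. Of the 14 pan-neuronal markers, 10 were highest and 1 (Syt1) lowest of all libraries there, with a sum of 35200 CPM against 24800 to 28800 CPM in the other females, and its glial markers summed to 15100 CPM against 11800 to 11900 CPM.

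**Figure D5:**
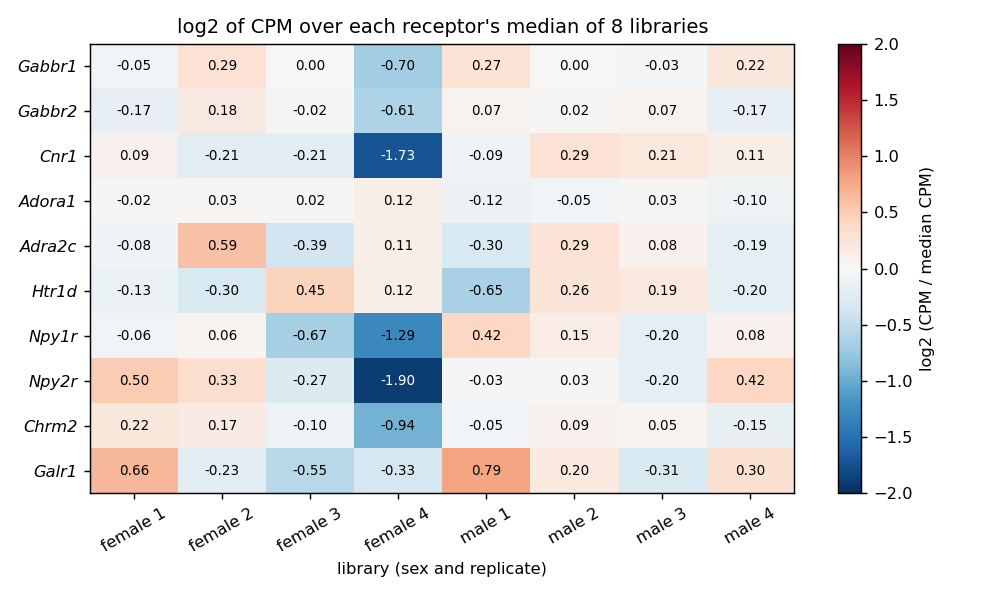
Heat map of log2 CPM over each receptor's median of the 8 libraries, with the value in each cell. The column of female replicate 4 holds the strongest negative values, -1.90 for Npy2r, -1.73 for Cnr1 and -1.29 for Npy1r, whereas Adora1 there is 0.12.

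The shared machinery behind these receptors was read from the same fit. Of the 20 listed Gi/o subunits and effectors, 17 were tested and 0 had an unadjusted edgeR p under 0.05, where 7.11% of all tested genes did, with a median log2 fold change of 0.00. Gnb1 and Gnao1, a beta subunit and the neuronal Go alpha subunit, were the most abundant by CPM, Gnb1 with 1790 ± 225 CPM in females and 1900 ± 81.6 CPM in males and Gnao1 with 713 ± 137 and 783 ± 78.5 CPM (SD, n = 4 each; edgeR adjusted p = 0.832 and 0.820). Per length, the presynaptic calcium channel gene Cacna1b (N type) was at 5.65 RPKM and Cacna1a (P/Q type) at 1.00 RPKM. Of the inward-rectifier potassium channels that Gi/o opens, Kcnj3 passed the filter with 29 to 82 reads per library, Kcnj6 and Kcnj9 had at most 11, and Kcnj5 had 0 in all 8 libraries.

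Of the 18 listed receptor kinases, arrestins and RGS proteins, which end or shorten G-protein signals, all 18 were tested, 3 had an unadjusted edgeR p under 0.05, where 7.11% of all tested genes did, and 0 passed adjustment. Arrb2, an arrestin, was at 22.5 ± 1.77 CPM in females and 17.5 ± 1.96 CPM in males (log2 fold change 0.34 ± 0.14 SE; edgeR adjusted p = 0.681). Rgs17 had a log2 fold change of -0.32 ± 0.13 and Rgs19 of -0.35 ± 0.15 (SE; edgeR adjusted p = 0.662 and 0.696). With length and GC offsets Rgs17 turned to 0.03 and was no longer under the unadjusted threshold. The most abundant were Rgs4, with 2270 ± 308 CPM in females and 2590 ± 300.0 CPM in males, and Arrb1, with 223 ± 98.0 and 327 ± 27.6 CPM (SD, n = 4 each; edgeR adjusted p = 0.755 and 0.714). Arrb1 came under the unadjusted threshold in 6 of 17 alternatives, with a log2 fold change of -0.57 in the reported test and of -0.33 without female replicate 4, and its adjusted p was 0.385 or more in each alternative. Among the other receptors of the same transmitters 7 of 18 genes were tested and 2 had an unadjusted edgeR p under 0.05 (median log2 fold change -0.04), and among the genes of ligand synthesis and breakdown 18 of 25 were tested and 1 did (median 0.04). Over all 105 related genes, 71 were tested, 7 (9.86%) had an unadjusted edgeR p under 0.05, of which females were higher for 2 and males for 5, and 0 passed adjustment. Over all tested genes these shares were 7.11%, 4.44% and 2.67%. With the glial score as a covariate all 7 lost the unadjusted call (edgeR p from 0.112 for Adora2b to 0.337 for Rgs19), with wider SEs for each (0.18 to 0.46, against 0.13 to 0.34 without it). The log2 fold changes were then -0.41 for Adora2b, -0.54 for Htr1b, -0.81 for Sstr4, 0.32 for Arrb2, 0.30 for Faah, -0.24 for Rgs17 and -0.22 for Rgs19, all in the same direction as without the score.

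For each receptor the tested gene with the most similar profile over the 8 libraries was looked up by Pearson's r of log2(CPM + 1) among 12517 genes. These were Ets1 for Npy1r (r = 0.998), Manea for Cnr1 (0.996), Rock2 for Gabbr1 (0.995), Gatad2a for Chrm2 (0.990), Jarid2 for Npy2r (0.988), Mpp7 for Galr1 (0.985), Acsl6 for Htr1d (0.979), Adamts15 for Gabbr2 (0.978), 2310016M24Rik for Adora1 (0.971) and Gm17066 for Adra2c (0.942). Each r is the highest of the genes searched and describes these 8 libraries, which share the low point of female replicate 4 for 6 receptors. No 2 receptors had the same nearest gene.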

How the data were processed

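RNA of 8 libraries of sorted WGA-labelled DRG neurons was analysed. The authors aligned single reads to mm9 with TopHat2 and used HTSeq-count to assign them to genes; what the authors deposited are raw read counts, not normalized. Versions, annotation release and strand option are not given in the sources used here, and SMART-seq2 does not mark strand. Summary lines of the counter were dropped. Reads carry no molecular identifiers, so floors (3 reads) cover counting error only.

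CPM are counts over the sum of gene reads of the library, scaled to a common total. Exon lengths, GC content and positions came from GENCODE M1 (mm9, 1-based), which matched 95.9% of symbols and all 10 receptors. Sexes were compared with the edgeR 4.0.16 quasi-likelihood test (R 4.3.3), TMM factors, the default expression filter and Benjamini-Hochberg adjustment over 12518 genes, and the subunit ratio with an exact permutation test. Log2 fold changes are female over male, and SEs come from the estimate and its F statistic. The fit was tested on simulated data. The alternatives tried were limma-voom (limma 3.58.1), DESeq2 1.42.0, other scaling and filters, a replicate block, the glial marker score as a covariate, length and GC offsets, and leaving out each library.

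The members and gene lists were chosen with earlier results of these data known. The genes named are the receptors, and from each related list those with an unadjusted p under 0.05 and the 2 of highest CPM, plus the nearest profile of each receptor; other list members named by value (Faah's pathway partners, ligand and receptor genes) were chosen after their values were seen. Libraries of 1 sex differed by more than counting noise (chi-square per degree of freedom at least 2.89), so none was a duplicate. Each library pools the ganglia of both sides, and p-values measure the spread between these libraries. No batch or date is given in the labels. Promoter windows came from the RefSeq table of GRCm38.p6 and were located in mm9 by exact match. Python 3.11.15, pandas 2.3.3 and matplotlib 3.10.9 were used.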

Additional observations from a re-analysis of the deposited data

Results flagged for a closer look

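Among 22 groups of 4 libraries (10 receptors and the GABA-B ratio in each sex), 1 held a library well apart from its group; by chance about 1 in 20 groups, or 1.10 here, would. It was Cnr1 in females: female replicate 4 was at 11.5 CPM against 32.9 to 40.4 CPM, and its gap to the nearest female made up 0.834 of the female range on the log2(CPM + 1) scale, above the 95% limit of Dixon's test for 4 values. After offsets for exon length and GC content Cnr1 was at 15.2 CPM there against 31.3 to 44.4 CPM in the other 7 libraries.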

How the results depend on the processing

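Of 170 receptor fold changes under 17 alternatives, 160 kept their direction and 0 reached an adjusted p under 0.05. The 10 that turned were Adra2c with the glial score (-0.19), with length and GC offsets (-0.11) and without female replicate 2 (range when each library was left out -0.11 to 0.22), Htr1d with the glial score (-0.27) and without female replicate 3 or male replicate 1 (-0.07 to 0.22), Npy2r (-0.44 to 0.14) and Chrm2 (-0.22 to 0.11) without female replicate 4, Chrm2 with length and GC offsets (0.06) and Galr1 with the glial score (0.23). None of these was called in either direction, and the causes were not tested. Receptors with an unadjusted p under 0.05 numbered 0 in the reported test, 1 (Npy1r) with limma-voom, without an expression filter and with the replicate block, and 0 to 3 when each library was left out (3 without female replicate 1: Npy1r, Cnr1 and Galr1; 1 without female replicate 2: Npy1r). Over all genes the 890 calls at an unadjusted p moved to 324 with the glial score and to between 587 (without male replicate 1) and 1453 (without female replicate 4), and the 11 adjusted calls to 48 with DESeq2, 6 with the replicate block, 5 with the glial score and between 7 and 84 when each library was left out, 84 without female replicate 1. The count of 7 calls among related genes became 2 with the glial score, Adora2a and Npy, neither of them among the 7, and between 3 and 9 when each library was left out. Of 306 values of the 18 named related genes 8 turned: with the glial score Htr1a (0.10) and Kctd8 (0.05), with offsets Kctd16 (-0.02) and Rgs17 (0.03), and without single libraries Htr1a (-0.39 to 0.17) and Kctd16 (-0.03 to 0.11). The log2 ratio of the Adora1 to the Gabbr1 level per kilobase, 0.62, became 0.05 with the longest transcript, by construction of the length. The GABA-B ratio difference of -0.076 turned to 0.014 without male replicate 4, with a range of -0.147 to 0.014 when each library was left out. Same-numbered libraries deviated together weakly or not at all (r = 0.103, -0.117, 0.151 and 0.0101), and 2 of the 4 females correlated best with the male of their own number. The numbers were not taken as pairs in the reported test. These values do not settle whether same-numbered libraries were processed together, so the replicate block is given as an alternative. Low-count members, Adra2c above all, are limited by depth.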

Other observations

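Other presynaptic receptors that couple to Gi were looked at as a list of 20 genes, of which 9 were tested, 1 had an unadjusted edgeR p under 0.05, where 7.11% of all tested genes did, and 0 passed adjustment. That gene was Sstr4, a somatostatin receptor, at 1.81 ± 0.807 CPM in females and 3.37 ± 0.395 CPM in males (SD, n = 4 each), a log2 fold change of -0.90 ± 0.34 (SE; edgeR adjusted p = 0.651) that rests on 5 to 25 reads per library. The most abundant of the list by CPM were Grm7, a presynaptic metabotropic glutamate receptor, with 114 ± 41.2 CPM in females and 141 ± 12.9 CPM in males, and S1pr1, a receptor for sphingosine 1-phosphate, with 35.6 ± 6.40 and 31.0 ± 1.07 CPM (SD, n = 4 each; edgeR adjusted p = 0.805 for both). Per length, Grm7 was at 21.6 RPKM, between Gabbr1 (23.6) and Htr1d (13.4). The dopamine receptor Drd4, the glutamate receptor Grm6 and the nucleotide receptor P2ry13 had 0 reads in all 8 libraries.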
